A study of Mus musculus with 4 samples.

Results

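The epidermal differentiation complex is a cluster of genes on mouse chromosome 3 that encode structural and calcium-binding proteins of the upper epidermis. The genes were taken by symbol from the array's platform annotation: every symbol beginning with Sprr or Lce, every S100a gene with a number, and Lor, Ivl, Flg, Flg2, Rptn, Hrnr, Tchh, Tchhl1, Crnn and Crct1. Only array rows with 1 gene symbol counted. This gave 57 genes out of 30142 with such a row, namely 13 Sprr genes, 20 Lce genes, 14 S100a genes, 7 S100-fused genes (Flg, Flg2, Rptn, Hrnr, Tchh, Tchhl1 and Crnn) and the 3 genes Lor, Ivl and Crct1. Each of the 57 had 1 row, and all 57 lie on chromosome 3.

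Slc2a1 encodes Glut1, a glucose transporter. Primary keratinocytes from mice labelled deficient for it in keratinocytes (Glut1-deficient) were set against those of wild-type (WT) mice, on 2 Affymetrix MTA-1_0 arrays per genotype. All mice were C57BL/6J and 1 week old, with 4 mice per genotype per the series' design text, and neither the driver of the deletion nor the deleted stretch of Slc2a1 is named in these sources. Both genotypes grew in the same keratinocyte medium with 0.05 mM CaCl2, insulin, hydrocortisone, pituitary extract and epidermal growth factor. After 3 days of culture they were replated at 2000000 cells, with harvest on the following day. Each array held RNA from a pair of plates of a genotype combined at random, so no array stands for 1 mouse, and p-values measure the spread between these pools, part of which may be technical.

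When keratinocytes leave the basal layer, they build a cornified envelope: transglutaminases crosslink involucrin, loricrin, small proline-rich proteins and late cornified envelope proteins beneath the plasma membrane. Filaggrin is a large repeat protein of the granular layer that bundles keratin filaments, and the other S100-fused genes encode its relatives. The S100a proteins are small calcium sensors, some of them secreted as antimicrobial or inflammatory signals. Expression of many of these genes rises with extracellular calcium, and cultures kept at low calcium stay mostly basal-like.

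Values are log2 signals, and a log2 fold change is Glut1-deficient minus WT. The 95th percentile of 23 background control rows, 4.36 to 4.87 by array, served as the background floor. Slc2a1 itself read 12.09 and 12.01 on the Glut1-deficient arrays, against 13.26 and 13.40 on the WT arrays (log2 fold change -1.28, limma adjusted p = 0.00754), and without Glut1-deficient replicate 1 its adjusted p was 0.0508. Its signal was thus lower but far above the floor, at 0.413 times the WT signal, and since the deleted stretch is not named, this row cannot show how complete the deletion was. Of 9 keratinocyte markers, 8 were above the floor on every array, among them Krt5 and Krt14, so the labelled cell type carried its markers. The genotypes did not overlap in any of the 9, with 8 lower and 1 higher in Glut1-deficient cells, and Col17a1 fell by 0.86 log2 units (adjusted p = 0.0181), a call that ended whichever array was left out (0.0567 to 0.0883). Among all rows, 49.7% did not overlap, 23.8% higher and 25.8% lower. Neutrophil markers, of interest because neutrophils also hold S100a8 and S100a9, were at or below the floor on every array for 9 of 10 genes. Fibroblast markers were higher, without overlap, on both Glut1-deficient arrays in 6 of 6 genes, with a mean level of 4.64 and 4.80 there against 4.24 and 4.22 in WT, and melanocyte markers in 5 of 5 genes, at 7.89 and 7.04 against 6.39 and 6.17. Lum, Col3a1 and Col6a3 stayed at or below the floor on every array. The part of other cells in the results below was not tested.

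In the Glut1-deficient cells, the complex did not move as a block. Crct1 and Sprr2h rose, while Sprr2b and Ivl fell, and the filaggrin-type genes and Lor stayed at or near background in both genotypes. Of the 57 genes, 3 rose, 6 fell and 48 did not pass the test (limma, Benjamini-Hochberg adjusted p under 0.05 over 30604 rows). The 9 called genes are 15.8% of the 57, against 7.22% of all rows called. Split by direction, they are 5.26% higher and 10.5% lower, against 4.11% higher and 3.11% lower among all rows tested. The median log2 fold change of the 57 genes was -0.11, against -0.01 over all rows. Signals of the genotypes did not overlap in 38 of the 57 genes, higher in Glut1-deficient cells in 16 and lower in 22. Of all rows, 49.7% did not overlap. In a fit over every row of the table (72688 rows) Sprr2b alone stayed called, with an adjusted p of 0.0412. A lower signal of bulk RNA can come from fewer cells that make a transcript or from less of it per cell, and these cannot be told apart here.

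**Figure D1:**
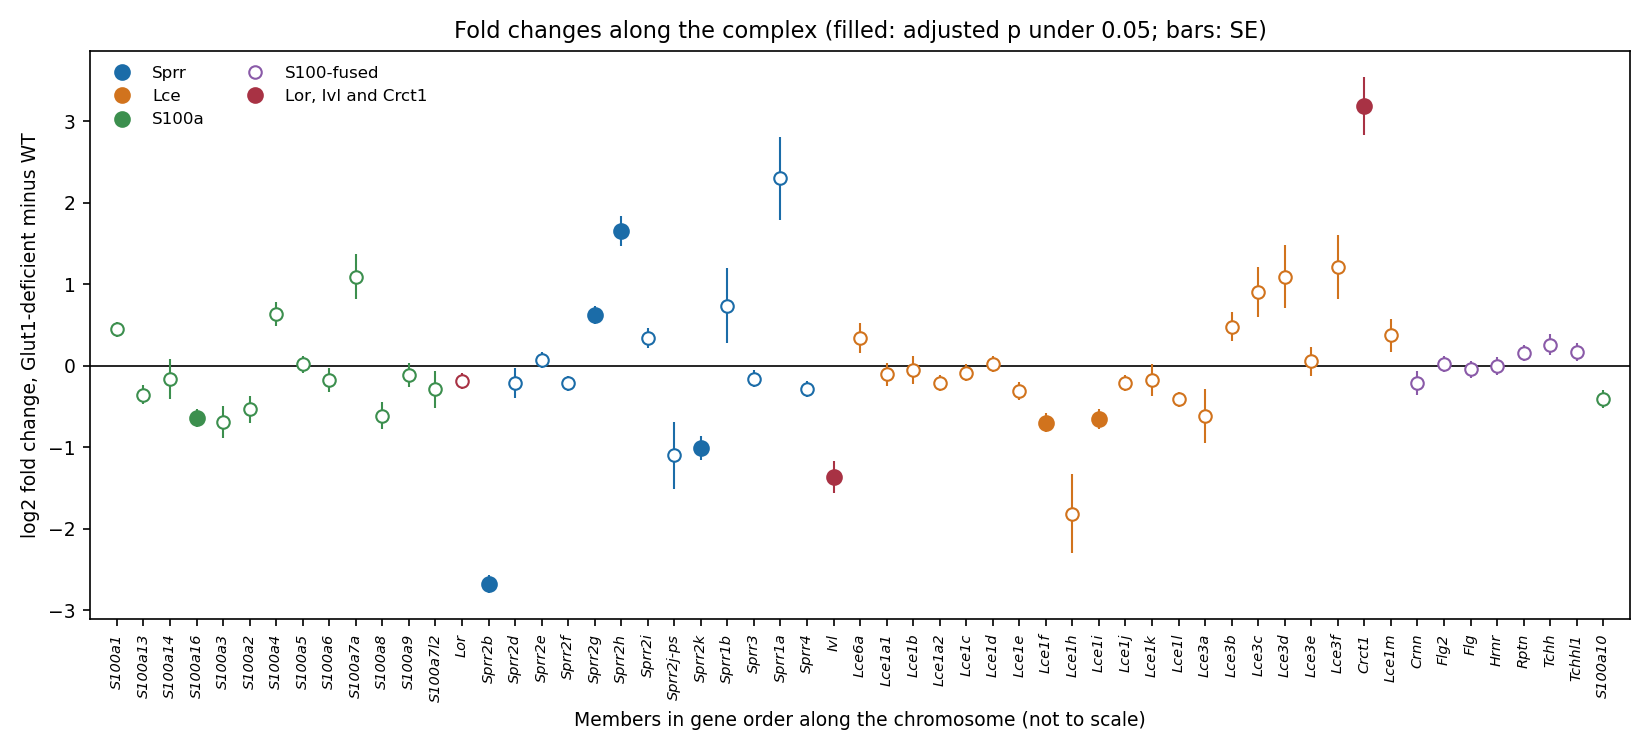
Log2 fold change (Glut1-deficient minus WT) of the 57 genes in their order along the chromosome, with the moderated standard error as bars and filled points for adjusted p under 0.05 (n = 2 arrays per genotype). Genes near each other moved in opposite directions: Sprr2b fell by 2.68 and Sprr2h rose by 1.66. By sign alone, 5 of 6 Lce3 genes and Crct1 lie on the higher side and 11 of 13 Lce1 genes on the lower side. No array was above the background floor for 6 of the Lce1 genes and 1 of the Lce3 genes. All arrays were above it for only 4 of the Lce1 genes and 2 of the Lce3 genes.

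Involucrin, encoded by Ivl, is an early crosslinked scaffold of the envelope. Ivl read 7.15 and 7.70 on the Glut1-deficient arrays and 8.89 and 8.69 on the WT arrays. Both Glut1-deficient values lay below both WT values, and Ivl fell by 1.36 log2 units (SE 0.20, limma adjusted p = 0.0251), a signal 2.57-fold lower. The call held with Glut1-deficient replicate 2 left out (0.0326) and ended with Glut1-deficient replicate 1 (0.0671), WT replicate 1 (0.0954) or WT replicate 2 (0.0675) left out. Loricrin, the most abundant protein of the mature envelope, is encoded by Lor. Its signal was 3.87 and 3.82 in Glut1-deficient cells and 4.09 and 3.98 in WT, at or below the floor on every array, so no fold is given.

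Crct1 encodes a small cysteine-rich protein, and the gene lies between Lce3f and Lce1m. It had the largest rise of the 57 genes: its signal was 10.67 and 10.81 on the Glut1-deficient arrays, against 6.997 and 8.11 on the WT arrays. The Glut1-deficient arrays nearly coincided, and both stood well above the WT pair, whose own values differed by more. The mean was 10.74 ± 0.10 in Glut1-deficient cells and 7.55 ± 0.79 in WT (SD, n = 2 each), a 9.12-fold higher signal (log2 fold change 3.19, SE 0.36, limma adjusted p = 0.0151). Leaving out WT replicate 1 or 2 gave log2 fold changes of 2.63 and 3.75, both still called (0.00981 and 0.00447), whereas leaving out Glut1-deficient replicate 1 or 2 ended the call (0.0861 and 0.0640).

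**Figure D2:**
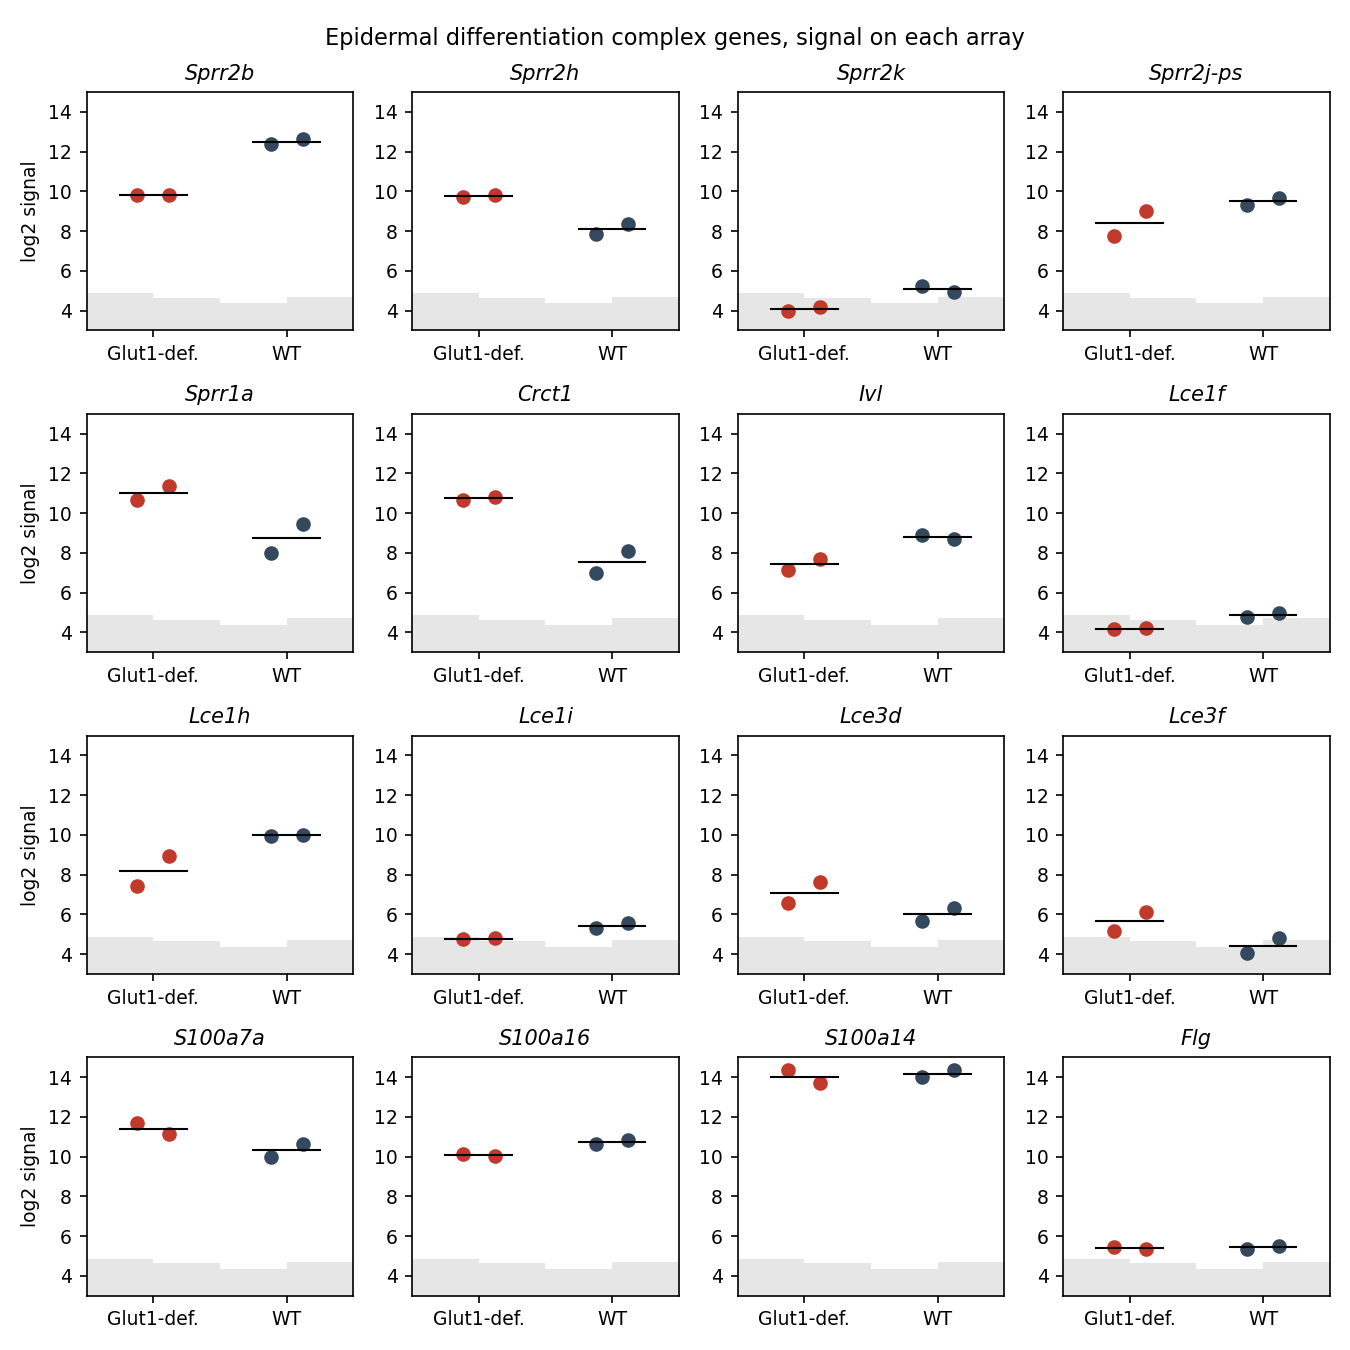
Log2 signal of 16 genes of the complex on each array, with Glut1-deficient arrays in red on the left and WT arrays in dark blue on the right, black lines for the means, and grey for the background floor of each array. Sprr2b, Ivl and S100a16 are lower and Crct1, Sprr2h and Sprr1a higher in Glut1-deficient cells, while Sprr2k, Lce1f and Flg sit close to the floor.

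The Sprr genes encode small proline-rich proteins, which bridge other proteins in the envelope and vary its stiffness. Of 13 Sprr genes, 2 rose (15.4%), 2 fell (15.4%) and 9 did not pass, against 4.11% called higher and 3.11% lower over all rows. At an unadjusted limma p under 0.05, 4 were higher (30.8%) and 4 lower (30.8%), against 11.6% and 10.4% of all rows. The median log2 fold change of the 13 was -0.16. Without WT replicate 2 that median was 0.02. All 4 called genes belong to the Sprr2 group, a run of near-identical neighbours, so probes of 1 copy may read transcripts of another and the split between copies is uncertain.

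Sprr2b had the largest fall. It read 9.83 and 9.84 on the Glut1-deficient arrays and 12.40 and 12.62 on the WT arrays. The genotypes were far apart and the arrays within each close together, and the signal was 6.39-fold lower in Glut1-deficient cells (log2 fold change -2.68, SE 0.11, limma adjusted p = 0.00219). It was the only one of the 57 genes that kept its call whichever array was left out, with log2 fold changes from -2.78 to -2.57 and adjusted p-values from 0.00761 to 0.0272. A pair of rows is assigned to more than 1 Sprr2a copy, the neighbours of Sprr2b, and was therefore outside the 57 genes. The brighter of them, assigned to Sprr2a1, Sprr2a2 and Sprr2a3, read 13.18 and 13.29 in Glut1-deficient cells and 15.34 and 15.88 in WT. The other, assigned to Sprr2a1 and Sprr2a2, read 6.70 and 6.83 against 8.23 and 8.65 in WT. Both differed in the direction of Sprr2b, by -2.37 and -1.68 on the log2 scale, and in a fit over every row of the table, which called 74 rows, their adjusted p-values were 0.0648 and 0.0754.

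Sprr2h, a close neighbour, moved the other way. Its signal was 9.71 and 9.81 in Glut1-deficient cells and 7.85 and 8.36 in WT, with no overlap, which made it 3.16-fold higher (log2 fold change 1.66, SE 0.19, limma adjusted p = 0.0151). Omitting Glut1-deficient replicate 1 or 2 ended the call (0.0803 and 0.0618). Sprr2k read 3.99 and 4.17 in Glut1-deficient cells, at or below the floor on both arrays, and 5.24 and 4.93 in WT, just above it. Its signal was therefore at least 1.26-fold lower (limma adjusted p = 0.0231), a call that held with WT replicate 2 omitted (0.0422) and ended with WT replicate 1 (0.0874), Glut1-deficient replicate 1 (0.108) or Glut1-deficient replicate 2 (0.0625) omitted. Sprr2g, annotated by RefSeq as a transcribed pseudogene, passed as higher (0.0371) although its signal was at or below the floor on all 4 arrays, 4.24 and 4.17 in Glut1-deficient cells and 3.67 and 3.48 in WT. No fold is given for it, and its call was lost whichever array was left out (0.0905 to 0.167).

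Sprr1a and Sprr1b encode precursors that rise early in stressed or differentiating keratinocytes. Sprr1a read 10.67 and 11.38 on the Glut1-deficient arrays, against 8.002 and 9.45 on the WT arrays. The genotypes did not overlap, but the WT pair differed by more than 1 log2 unit, and the 4.92-fold higher signal did not pass (log2 fold change 2.30, SE 0.51, limma adjusted p = 0.0651). Its log2 fold change was 1.57 without WT replicate 1 (adjusted p = 0.0906) and 3.03 without WT replicate 2 (0.0205, a call), and it was not called without Glut1-deficient replicate 1 (0.158) or 2 (0.198). It was called when only the brighter 15302 rows were fitted (0.0398). The pseudogene Sprr2j-ps read 7.77 and 9.03 in Glut1-deficient cells and 9.33 and 9.66 in WT (adjusted p = 0.211). Its log2 fold change was -0.47 without Glut1-deficient replicate 1 (0.295) and -1.72, called, without Glut1-deficient replicate 2 (0.0377). The other 7 Sprr genes, Sprr1b among them, had log2 fold changes between -0.28 and 0.74 and adjusted p-values of at least 0.177.

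The sequences before the starts of 4 Sprr genes and Ivl are shown because Sprr2h, which rose, and Sprr2b, Sprr2k and Ivl, which fell, carry the same letters there. Sprr1a, higher but not called, has them too. They are RefSeq promoter sequences of GRCm38.p6, 200 bases that end at the base before the gene's start, 5′ to 3′ on the gene's strand. Capitals mark TGANTCA, the letters bound by AP-1 (dimers of Fos and Jun proteins), and TATAAA, the TATA box. Sprr2b spans chr3:92316505-92316704 on the plus strand, Sprr2h chr3:92385485-92385684 on the plus strand, Sprr2k chr3:92432382-92432581 on the plus strand, Sprr1a chr3:92485882-92486081 on the minus strand and Ivl chr3:92573736-92573935 on the minus strand.
Sprr2b: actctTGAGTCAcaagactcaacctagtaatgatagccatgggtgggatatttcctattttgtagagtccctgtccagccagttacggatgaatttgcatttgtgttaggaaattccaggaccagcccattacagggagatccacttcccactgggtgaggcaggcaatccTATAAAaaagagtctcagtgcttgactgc
Sprr2h: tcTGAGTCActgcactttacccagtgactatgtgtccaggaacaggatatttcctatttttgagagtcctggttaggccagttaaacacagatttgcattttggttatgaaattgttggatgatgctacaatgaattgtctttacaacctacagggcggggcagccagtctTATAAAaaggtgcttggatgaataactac
Sprr2k: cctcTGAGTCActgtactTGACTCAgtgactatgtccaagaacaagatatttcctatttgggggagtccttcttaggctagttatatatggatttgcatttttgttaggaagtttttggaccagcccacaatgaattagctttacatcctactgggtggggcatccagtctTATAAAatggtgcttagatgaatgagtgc
Sprr1a: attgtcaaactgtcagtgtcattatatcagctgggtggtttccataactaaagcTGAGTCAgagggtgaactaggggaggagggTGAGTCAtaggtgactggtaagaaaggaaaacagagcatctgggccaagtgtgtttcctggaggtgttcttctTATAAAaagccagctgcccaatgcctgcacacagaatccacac
Ivl: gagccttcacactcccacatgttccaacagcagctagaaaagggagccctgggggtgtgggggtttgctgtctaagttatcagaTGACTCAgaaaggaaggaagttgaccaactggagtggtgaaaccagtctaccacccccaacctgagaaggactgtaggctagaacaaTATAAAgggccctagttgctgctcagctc

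Sprr2b, which fell, held TGANTCA starting 195 bases before the start, and Sprr2h, which rose, held it at 198 bases. Sprr2k held it at 196 and 182 bases, Sprr1a at 146 and 116 bases and Ivl at 116 bases. TATAAA began 29 bases before the start in Sprr2b, Sprr2h, Sprr2k and Ivl and 43 bases before it in Sprr1a. In global alignments of these stretches, Sprr2h was identical to Sprr2k at 80.7% of positions and to Sprr2b at 62.8%. Sprr2b and Sprr2k were identical at 68.3%. Ivl, which also fell, was identical to Sprr2b at 48.7%, to Sprr2k at 48.5% and to Sprr2h at 46.6%. Of the genes called higher, only Sprr2h had a promoter sequence, so no other called riser could be compared.

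Promoter windows from 250 bases before to 50 after a start were found for 50 of the 57 genes (54 windows). TGANTCA, which reads the same on both strands, was in 18 of the 54 windows (33.3%), against 7.8% of all 32851 windows. By subfamily it was in 9 of 11 Sprr windows, 2 of 15 S100a windows and 0 of 19 Lce windows. The remaining matches lay in Crnn, Flg, Flg2, Ivl, Lor, Rptn and Tchhl1, of which only Ivl was called. TATAAA on either strand was in 25 of the 54 windows (46.3%), against 13.6% of all windows, and in 10 of 11 Sprr windows. CACCC on either strand, a core of Klf-type sites, was in 59.3% of the 54 windows and 57.5% of all windows. Matches of different motifs were counted separately and may overlap. A match describes the letters in the window and does not show that a factor binds there.

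The Lce genes encode late cornified envelope proteins, small cysteine- and glycine-rich substrates of transglutaminases. Of 20, none rose, 2 fell (10%) and 18 did not pass, against 4.11% called higher and 3.11% lower over all rows. Their median log2 fold change was -0.09. At an unadjusted limma p under 0.05, 4 were higher (20%) and 5 lower (25%), against 11.6% higher and 10.4% lower of all rows. Lce1f read 4.17 and 4.196 in Glut1-deficient cells, below the floor on both arrays, and 4.76 and 4.99 in WT, a signal at least 1.09-fold lower (limma adjusted p = 0.0326). Lce1i read 4.74 and 4.82 in Glut1-deficient cells and 5.31 and 5.55 in WT (log2 fold change -0.65, SE 0.12, adjusted p = 0.0423). Both lie close to the floor, Lce1i was not called after quantile normalization (0.0645), and both calls were lost whichever array was left out (adjusted p from 0.0829 to 0.172). Lce1h, well above the floor, read 7.40 and 8.93 in Glut1-deficient cells and 9.94 and 10.02 in WT. The Glut1-deficient pair differed widely, and the log2 fold change of -1.81 (SE 0.48) did not pass (adjusted p = 0.0988). It was -1.05 without Glut1-deficient replicate 1 (0.0561) and -2.58, called, without Glut1-deficient replicate 2 (0.0209), and it was not called without WT replicate 1 (0.228) or 2 (0.232). Lce1j, the other bright Lce gene, read 6.56 and 6.68 in Glut1-deficient cells and 6.85 and 6.82 in WT (adjusted p = 0.318).

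The Lce1 and Lce3 groups differed in the direction of most of their values, a division looked at after the values were seen. Of 13 Lce1 genes, 11 had negative log2 fold changes (median -0.21), against 16085 of all 30604 rows. Of 6 Lce3 genes, which in human skin are induced after barrier injury, 5 had positive ones (median 0.70), against 14518 of all rows. On every array, 6 of the Lce1 genes and 1 of the Lce3 genes were at or below the floor, and no Lce3 gene was called. Only 4 of the Lce1 genes and 2 of the Lce3 genes were above the floor on all arrays. A row assigned to both Lce1g and Lce1l had a log2 fold change of 0.0047, against -0.41 for the row of Lce1l alone. Probes may thus not separate all Lce copies. Lce3d read 6.58 and 7.60 in Glut1-deficient cells and 5.68 and 6.32 in WT, and Lce3f read 5.16 and 6.12 against 4.04 and 4.82. The signals did not overlap between genotypes in either gene, yet the arrays of a genotype stood apart too. Their log2 fold changes of 1.09 (SE 0.39) and 1.21 (SE 0.39) did not pass (limma adjusted p = 0.184 and 0.156), nor did either pass with any array left out. The other 14 Lce genes had log2 fold changes from -0.61 to 0.91 and adjusted p-values of at least 0.0686.

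**Figure D3:**
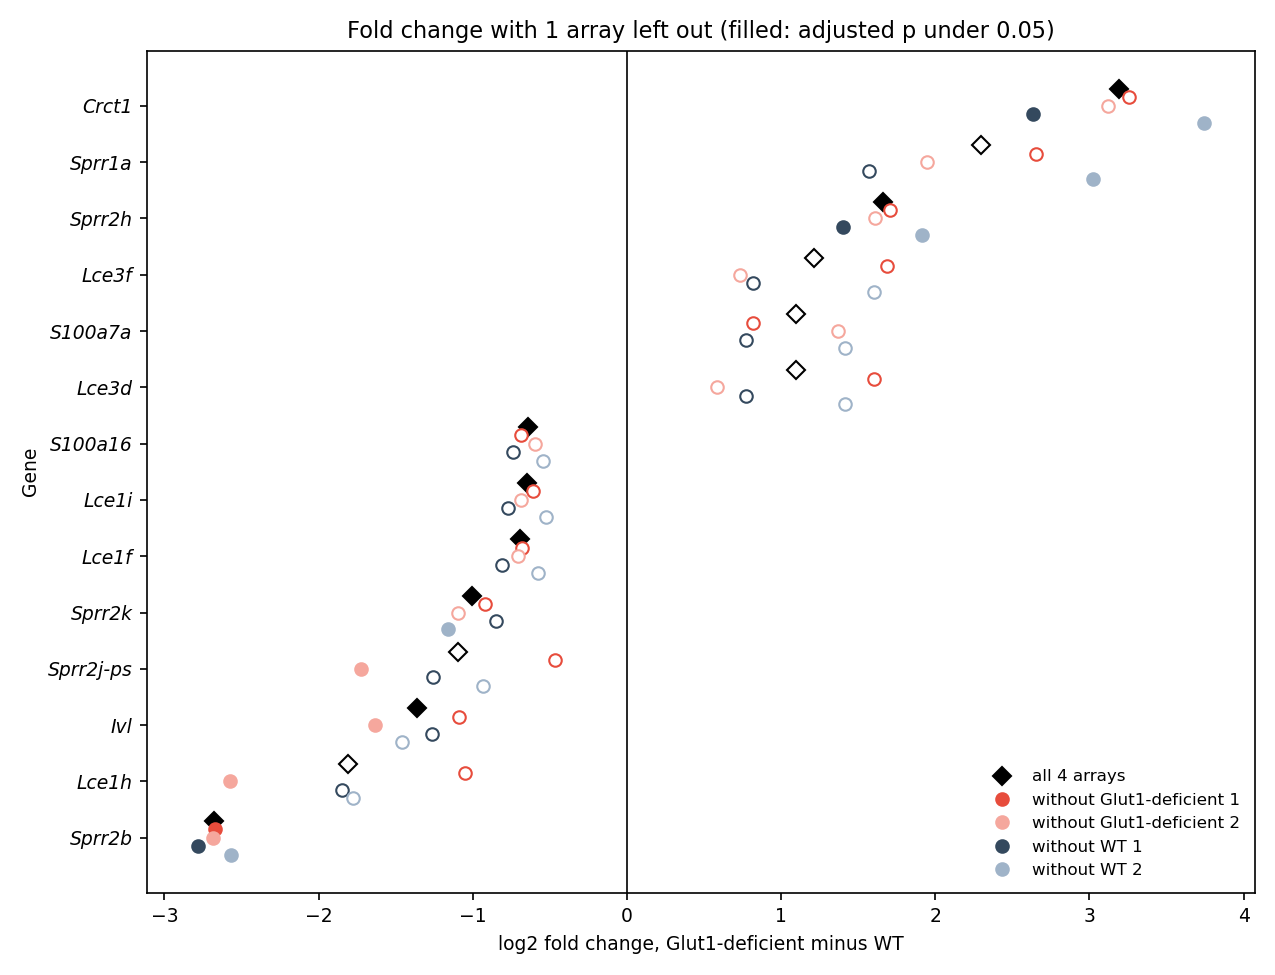
Log2 fold change (Glut1-deficient minus WT) of 14 genes of the complex from all 4 arrays (black diamonds) and with each array left out in turn (circles), filled where adjusted p was under 0.05. Every direction held, and Sprr2b is the gene whose 5 points are all filled.

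The S100-fused genes encode filaggrin, which bundles keratin filaments and is degraded to natural moisturizing factor, and its relatives. Of 7, none rose or fell at an adjusted p under 0.05 in limma, against 7.22% of all rows called. At an unadjusted p under 0.05, 0 passed. Their smallest adjusted p was 0.350, and their median log2 fold change was 0.02. Flg itself was the only one above the floor, at 5.43 and 5.36 in Glut1-deficient cells and 5.36 and 5.51 in WT, with overlapping genotypes (log2 fold change -0.04, SE 0.10, adjusted p = 0.898). Rptn, which encodes repetin, read 4.40 and 4.30 in Glut1-deficient cells and 4.22 and 4.16 in WT, all at or below the floor. Flg2, Hrnr, Tchh, Tchhl1 and Crnn were also at or below the floor on every array, between 2.96 and 4.15. None of these 6 genes or Lor was called, and at or below the floor a difference could be missed.

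The S100a genes had the most members above the floor, 10 of 14 on all arrays. None rose, 1 fell and 13 did not pass. The share called, 7.14%, was close to the 7.22% of all rows called, 4.11% higher and 3.11% lower. The median log2 fold change was -0.23. At an unadjusted limma p under 0.05, 3 were higher (21.4%) and 6 lower (42.9%), against 11.6% and 10.4% of all rows. The gene that fell was S100a16, an EF-hand calcium-binding protein, at 10.13 and 10.04 in Glut1-deficient cells and 10.63 and 10.82 in WT (log2 fold change -0.64, SE 0.11, limma adjusted p = 0.0375). Its groups did not overlap, but the call was lost whichever array was left out (0.100 to 0.167) and after quantile normalization (0.0672). S100a7a, the mouse counterpart of the antimicrobial psoriasin group, read 11.68 and 11.13 in Glut1-deficient cells and 9.99 and 10.63 in WT. Both Glut1-deficient values were higher, and the log2 fold change of 1.09 (SE 0.28) did not pass (adjusted p = 0.0871).

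The brightest S100a rows did not pass. S100a14 read 14.34 and 13.68 in Glut1-deficient cells and 14.002 and 14.34 in WT, with overlapping genotypes (limma adjusted p = 0.806). S100a6, which encodes calcyclin, read 13.88 and 14.13 in Glut1-deficient cells and 14.04 and 14.32 in WT, also overlapping (adjusted p = 0.611). S100a8 and S100a9, chosen here after their values were seen, encode the subunits of the antimicrobial complex calprotectin. S100a8 read 8.74 and 8.31 in Glut1-deficient cells and 9.08 and 9.19 in WT (adjusted p = 0.0996), and S100a9 read 5.76 and 5.49 in Glut1-deficient cells and 5.61 and 5.86 in WT (adjusted p = 0.777). The neutrophil markers given above lay between 2.92 and 4.54. S100a4, also made by fibroblasts and likewise chosen afterwards, read 5.02 and 5.10 in Glut1-deficient cells and 4.24 and 4.60 in WT (adjusted p = 0.0698), and passed as higher when only the brighter 15302 rows were fitted. S100a4 was at or below the floor on both WT arrays. Its higher values went the way of the fibroblast markers given above. S100a6, also made by fibroblasts, did not: its genotypes overlapped (log2 fold change -0.17). The part of fibroblasts in either gene was not tested. S100a1, likewise chosen afterwards, was above the floor on every array. It read 7.60 and 7.57 in Glut1-deficient cells and 7.14 and 7.14 in WT (limma adjusted p = 0.0535). Like S100a4, it passed as higher when only the brighter 15302 rows were fitted. The 10 S100a genes outside the 4 named first had log2 fold changes from -0.69 to 0.64 and adjusted p-values of at least 0.0535.

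The partners that crosslink, process or accompany these proteins also went both ways. Of 22 such genes, 7 rose, 2 fell and 13 did not pass, with a median log2 fold change of 0.39. Over all rows, 4.11% were called higher and 3.11% lower. With an unadjusted limma p under 0.05, 11 were higher (50%) and 3 lower (13.6%), against 11.6% and 10.4% of all rows. Tgm1, the main crosslinking transglutaminase of the envelope, read 6.46 and 6.31 in Glut1-deficient cells and 7.64 and 8.16 in WT (log2 fold change -1.52, SE 0.19, limma adjusted p = 0.0186). Both Glut1-deficient arrays lay below both WT arrays, as for Ivl and Sprr2b. Padi3 encodes a peptidylarginine deiminase that modifies filaggrin and trichohyalin. It read 4.70 and 4.53 in Glut1-deficient cells, at or below the floor, and 6.19 and 6.12 in WT, a signal at least 2.65-fold lower (adjusted p = 0.00523). Tgm3 and Tgm5 were at or below the floor on every array.

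Asprv1, Cdsn, Klk7 and Sbsn rose, while Casp14, an enzyme gene of the same list chosen after its values were seen, did not pass (log2 fold change -0.43, limma adjusted p = 0.240). Asprv1, the protease that processes profilaggrin, read 13.22 and 13.40 in Glut1-deficient cells and 9.04 and 10.57 in WT (log2 fold change 3.51, SE 0.49, limma adjusted p = 0.0226). Cdsn, which encodes the adhesion protein of corneodesmosomes, read 9.29 and 9.40 in Glut1-deficient cells and 5.93 and 6.25 in WT (log2 fold change 3.25, adjusted p = 0.00219). Klk7, a protease that cleaves corneodesmosomes, and Sbsn, which encodes suprabasin, rose by 1.36 and 1.70 on the log2 scale (adjusted p = 0.0245 and 0.0291). Of 7 keratins checked beside them, none rose or fell in limma (0 higher and 2 lower at an unadjusted p under 0.05, against 11.6% and 10.4% of all rows). The suprabasal keratin genes Krt1 and Krt2 were at or near the floor, while Krt10 was above it on all 4 arrays, at 5.31 and 5.26 in Glut1-deficient cells and 5.48 and 5.37 in WT (adjusted p = 0.516). With Glut1-deficient replicate 1 or 2 omitted, the calls of Tgm1 (0.0890 and 0.0717), Asprv1 (0.110 and 0.0874), Klk7 (0.123 and 0.0761) and Sbsn (0.134 and 0.102) ended. That of Klk7 also ended with WT replicate 1 omitted (0.0540), while Cdsn and Padi3 kept theirs whichever array was left out. Over every row of the table, Cdsn alone of the enzymes, partners, neighbours and regulators stayed called (0.0412). The log2 fold change of Asprv1 was 2.74 without WT replicate 1 and 4.28 without WT replicate 2.

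Other genes in or around the complex also split. Of 10 checked, among them Kprp, which also counts with the partners, 2 rose, 1 fell and 7 did not pass. The shares called over all rows were 4.11% higher and 3.11% lower. With an unadjusted limma p under 0.05, 2 were higher (20%) and 1 lower (10%), against 11.6% and 10.4% of all rows. Kprp, a keratinocyte proline-rich protein gene between Lce1k and Lce1l, read 7.84 and 8.26 in Glut1-deficient cells and 5.11 and 6.41 in WT (log2 fold change 2.29, SE 0.43, limma adjusted p = 0.0446). Its fold change was 1.64 without WT replicate 1 and 2.94 without WT replicate 2, and its call ended with Glut1-deficient replicate 1 or 2 omitted (0.148 and 0.149) and after median centring. Pglyrp3, a peptidoglycan recognition protein gene between S100a7l2 and Lor, read 8.74 and 9.56 in Glut1-deficient cells and 12.62 and 12.33 in WT (log2 fold change -3.32, SE 0.28, adjusted p = 0.00789), and kept its call whichever array was left out. Them4, a thioesterase gene, rose by 0.75 on the log2 scale (adjusted p = 0.0267), a call lost whichever array was left out (0.0675 to 0.121).

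**Figure D4:**
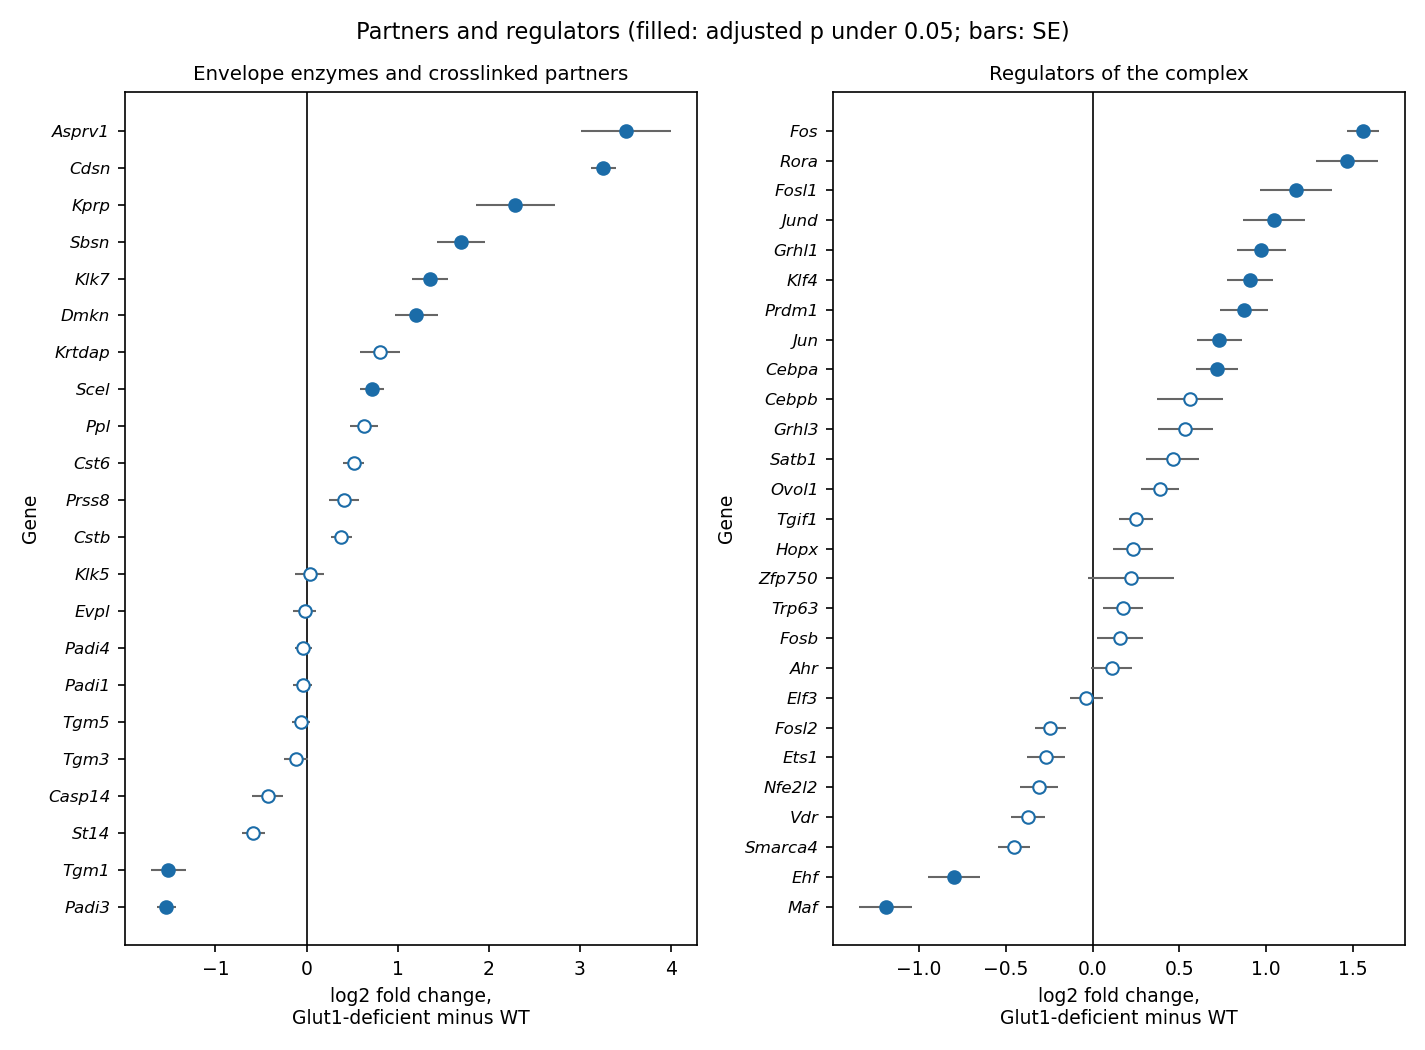
Log2 fold change (Glut1-deficient minus WT) with standard error for 22 envelope enzymes and partners (left) and 27 transcription regulators (right), filled where adjusted p was under 0.05. Asprv1 and Cdsn rise most and Padi3 and Tgm1 fall most among the partners, and Fos, Rora and Fosl1 stand highest among the regulators, with Rora drawn at its brightest row (1.47, against 0.83 for the mean of its rows).

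Among transcription regulators known to act on the complex, more rose than fell. Of 27 measured out of 31 listed, 9 rose, 2 fell and 16 did not pass, with a median log2 fold change of 0.25. Calls over all rows were 4.11% higher and 3.11% lower. With an unadjusted limma p under 0.05, 14 were higher (51.9%) and 6 lower (22.2%), against 11.6% and 10.4% of all rows. Fos, an AP-1 subunit, read 7.42 and 7.48 in Glut1-deficient cells and 5.90 and 5.88 in WT (log2 fold change 1.56, SE 0.09, limma adjusted p = 0.00434), with no overlap and with its call kept whichever array was left out. Of 6 AP-1 subunits measured, 4 rose and none fell in limma (4 higher and 1 lower at an unadjusted p under 0.05), against 4.11% called higher and 11.6% higher at an unadjusted p under 0.05 among all rows, the others that rose being Fosl1 (1.17), Jund (1.05) and Jun (0.73). Rora, a nuclear receptor gene, rose by 1.47 at its brightest row (0.83 for the mean of its rows, adjusted p = 0.0232) and the differentiation factor genes Grhl1, Klf4 and Prdm1 by 0.97, 0.91 and 0.87 (adjusted p from 0.0171 to 0.0292). Maf fell by 1.19 (adjusted p = 0.0190) and the ETS-family gene Ehf by 0.80 (0.0439). Fosl1, Jund, Jun, Ehf and Cebpa, which rose by 0.72, were chosen after their values were seen.

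These regulator calls rested on few arrays. Grhl1, Prdm1 and Cebpa lost theirs whichever array was left out (limma adjusted p from 0.0508 to 0.145). Klf4, Jun and Jund kept theirs only without Glut1-deficient replicate 2, Fosl1 only without Glut1-deficient replicate 1 and Maf only without WT replicate 2. Rora lost its call without Glut1-deficient replicate 1 (0.0763) or WT replicate 1 (0.0606), and Ehf lost it whichever array was left out (0.0718 to 0.166). Fosl1 and Ehf were also not called after median centring.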

How the data were processed

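Each array's table holds deposited log2 values, 1 per transcript cluster, which are SST-RMA gene signals per the labels. The submitters' processing notes name RMA and the Affymetrix Expression Console. Versions and the annotation release are not stated in these sources. RMA brings array distributions close together, which would hide a shift common to most genes. The medians of the deposited arrays still ran from 4.19 to 4.24. The SST transformation can change the size of folds.

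Of 72688 rows, the 30604 with 1 platform gene symbol were compared with limma 3.58.1 (lmFit, eBayes) in R 4.3.3, two-sided, Benjamini-Hochberg adjusted over all of them, with no block and no filter on low values. The brightest row stood for a gene. RefSeq (GRCm38.p6) matched 22818 rows by Entrez identifier, updated 827 symbols, and gave gene order and promoters. A pseudogene on another chromosome that fits the rule only by its updated symbol (S100a11-ps) was left out. A fold against a group at or below the floor on both arrays is a bound against that floor. The fit was tested on simulated data drawn from its own variance model. That test cannot show whether the model holds for these arrays.

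Members, lists and tests were chosen with earlier results of these data known. Named are called members, uncalled members at least 2-fold apart without overlap and above the floor in a genotype, the 2 brightest of each subfamily, Flg, Lor and Ivl, and up to 6 called genes of each other list by smallest p, with exceptions said in place. Alternatives covered normalization, rows tested, variance moderation, a replicate block, a gene's row and each array left out. The number of arrays limits the precision.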

Additional observations from a re-analysis of the deposited data

How the results depend on the processing

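Of the log2 fold changes of single named genes under the other settings, 380 kept direction and side of the threshold, 142 lost the call, 8 gained it and 4 turned sign: Flg (0.026 after quantile normalization and 0.031 without WT replicate 2, with arrays left out giving -0.115 to 0.031) and S100a14 (0.16 without Glut1-deficient replicate 2 and 0.0046 without WT replicate 2, with arrays left out giving -0.492 to 0.164), neither called in any fit. Leaving out 1 array gave 314 to 1214 called rows in all, against 2209 with all arrays, and 0 to 3 risers and 1 to 4 falls among the 57 genes, with 1 to 4 Sprr, 0 to 1 Lce, 0 S100a and 0 to 1 of Lor, Ivl and Crct1 called. Medians of log2 fold change then ran from -0.20 to 0.0196 for Sprr, from -0.21 to 0.04 for Lce and from -0.35 to -0.13 for S100a, and Slc2a1 from -1.35 to -1.21. A genotype with 1 array left is assumed to vary like the other. Testing every row of the table left 74 calls in all and, among the 57 genes, 0 risers and 1 fall (Sprr2b), so 1 Sprr, 0 Lce, 0 S100a and 0 of Lor, Ivl and Crct1, and Slc2a1 was then not called (-1.28, adjusted p = 0.0648). Quantile normalization left 1 Lce and 0 S100a genes called. Restricting the fit to the brighter 15302 rows, which hold 31 of the 57 genes, gave 5 risers, 1 Lce and 3 S100a genes called, and medians of 0.21 for Sprr and 0.91 for Ivl and Crct1, over fewer genes. For Rora the mean of its rows gave 0.83, against 1.47 at the brightest row. Median centring, trend with robust moderation and the mean of a gene's rows called 9 of the 57 each. Deviations of same-numbered arrays from their genotype means correlated at -0.23, and plates were combined at random, so arrays share only a number. With the replicate block 6 genes rose (Sprr2h, Sprr1a, Lce3c, Lce3d, Lce3f and Crct1), 6 fell (Sprr2b, Sprr2k, Ivl, Lce1f, Lce1h and Lce1i), and 6 Lce and 0 S100a genes were called, 1849 rows in all. Its adjusted p was 0.00437 for Sprr1a, 0.0324 for Lce1h, 0.0163 for Lce3d and 0.0091 for Lce3f. Crossing the numbers, chosen after seeing the data, called 8 of the 57 and 2039 rows in all.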

Other observations

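Glut1-deficient replicate 2 read higher than Glut1-deficient replicate 1 in 28 of the 57 genes (49.1%), against 39.5% of all rows, and WT replicate 2 higher than WT replicate 1 in 43 (75.4%), against 52.9% of all rows. The median SD within a genotype over the 57 genes was 0.10 in Glut1-deficient cells and 0.16 in WT, against 0.10 and 0.08 over all rows. Crct1 (6.997 and 8.11), Sprr1a (8.002 and 9.45), Kprp (5.11 and 6.41) and Asprv1 (9.04 and 10.57) were each higher on WT replicate 2, given second here. The same genes also read higher on Glut1-deficient replicate 2 than on replicate 1. Those pairs were 10.67 and 10.81 for Crct1, 10.675 and 11.38 for Sprr1a, 7.84 and 8.26 for Kprp and 13.22 and 13.40 for Asprv1. What separated the cultures within a genotype was not tested.

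A row assigned to S100a11 and a pair of predicted genes, outside the 57 genes for that reason, read 19.00 and 18.72 in Glut1-deficient cells and 19.24 and 19.28 in WT. A row assigned to Lce1g and Lce1l read 7.14 and 7.41 in Glut1-deficient cells and 7.16 and 7.39 in WT.

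Among markers of other cells, Kdr read 10.14 and 9.51 in Glut1-deficient cells and 6.11 and 6.34 in WT (limma adjusted p = 0.00507), while the endothelial genes Pecam1 and Cdh5 were near or below the floor. Cd68 read 9.30 and 10.20 in Glut1-deficient cells and 7.76 and 7.85 in WT, and Cd14 read 6.32 and 6.39 against 7.60 and 7.85 in WT, while the macrophage genes Adgre1, Csf1r, Lyz2 and Mrc1 were below the floor on every array.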
